A study of Mus musculus with 12 samples.

Results

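The genes described here encode the subunits of 2 families of proteins through which cells hold on to their surroundings, the integrins and the laminins. Members were all genes whose symbol in the probe annotation marks them as an integrin alpha or beta subunit or as a laminin alpha, beta or gamma chain, each read on its brightest probe set. They number 34 of the 18194 genes with a probe set of their own, 24 integrin subunits (16 alpha and 8 beta) and 10 laminin chains. All 34 were kept, with no filter on low values. Itga11 and Itgad were not analysed here.

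The lungs came from C57BL/6 mice, either wild type or carrying a knockout of FIZZ2, the secreted resistin-family protein also called RELM-beta and encoded by Retnlb. Each mouse had received saline or bleomycin, a DNA-breaking drug used to injure and scar the mouse lung, through the trachea, and lungs were taken on day 21, after perfusion with buffered saline. There were 3 arrays in each of 4 groups: wild type saline, wild type bleomycin, knockout saline and knockout bleomycin. The labels give neither the age of the mice nor how the knockout was made, and are silent on whether each replicate was its own animal, so p-values reflect only how these samples vary, which may be technical. The array medians lay between 5.58 and 5.68 (log2) and arrays of a group correlated at 0.988 to 0.997 across probe sets, which are not independent replicates. Retnlb itself was dim in every group, at 3.57 to 3.84 and 3.8 to 4.13 in wild type and 3.54 to 3.83 and 3.49 to 3.72 in knockout lungs (saline and bleomycin), so it checks the genotype labels only weakly. As a sign of RNA quality, the 3 prime minus 5 prime signal of Gapdh lay between 0.35 and 0.8 on 11 arrays and was 1.42 on wild type saline replicate 2. The markers of alveolar type 2 cells, the surfactant-making cells of the lung, were bright on all 12 arrays, with a log2 summed level of 15.86 to 15.92 and 15.23 to 15.71 in wild type and 15.81 to 15.86 and 15.91 to 16 in knockout lungs (saline and bleomycin).

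Integrins are receptors made of 1 alpha and 1 beta subunit that span the cell membrane; the alpha subunit largely sets the ligand and the beta subunit links to the actin skeleton through talin and kindlin. Laminins are cross-shaped trimers of 1 alpha, 1 beta and 1 gamma chain that polymerise into the basement membrane under epithelium and around endothelium and muscle. In the lung, epithelial cells, fibroblasts, endothelium and white blood cells each carry their own set of integrins, and several alpha V integrins are known for releasing latent TGF-beta, a growth factor of scarring. In whole-lung RNA, fewer cells of a type and less RNA per cell cannot be told apart.

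The promoter windows of 4 integrin genes that the results below turn on are shown first, as RefSeq places them in GRCm38.p6 (250 bases before to 50 after the gene start). Itgam and Itgax are leukocyte alpha subunits that lie close together on chromosome 7, Itgb6 is the epithelial beta subunit with the largest change among the integrins, and Itga8 is the fibroblast and smooth muscle alpha subunit that fell. Capitals mark matches on either strand to GAGGAA, an Ets-family core, or to TGANTCA, an AP-1 site.
Itgam, chr7:128062390-128062689, plus strand: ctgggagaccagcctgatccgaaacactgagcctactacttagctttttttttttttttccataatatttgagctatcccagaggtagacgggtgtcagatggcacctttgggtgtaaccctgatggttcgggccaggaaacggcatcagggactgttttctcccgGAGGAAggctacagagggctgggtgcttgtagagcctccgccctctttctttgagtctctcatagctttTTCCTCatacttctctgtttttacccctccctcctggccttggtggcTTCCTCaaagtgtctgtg
Itgax, chr7:128129300-128129599, plus strand: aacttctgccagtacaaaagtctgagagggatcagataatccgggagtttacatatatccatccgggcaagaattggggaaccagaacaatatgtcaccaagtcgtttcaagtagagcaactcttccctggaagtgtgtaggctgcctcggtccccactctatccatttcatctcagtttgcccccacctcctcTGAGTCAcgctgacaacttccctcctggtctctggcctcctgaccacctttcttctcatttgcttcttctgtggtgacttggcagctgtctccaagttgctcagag
Itgb6, chr2:60722554-60722853, minus strand: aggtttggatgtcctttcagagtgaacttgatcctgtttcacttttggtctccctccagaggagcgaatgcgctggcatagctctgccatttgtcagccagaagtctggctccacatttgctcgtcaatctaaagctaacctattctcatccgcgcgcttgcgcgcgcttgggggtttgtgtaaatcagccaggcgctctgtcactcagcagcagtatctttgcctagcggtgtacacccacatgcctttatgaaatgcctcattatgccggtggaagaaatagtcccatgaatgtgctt
Itga8, chr2:12301895-12302194, minus strand: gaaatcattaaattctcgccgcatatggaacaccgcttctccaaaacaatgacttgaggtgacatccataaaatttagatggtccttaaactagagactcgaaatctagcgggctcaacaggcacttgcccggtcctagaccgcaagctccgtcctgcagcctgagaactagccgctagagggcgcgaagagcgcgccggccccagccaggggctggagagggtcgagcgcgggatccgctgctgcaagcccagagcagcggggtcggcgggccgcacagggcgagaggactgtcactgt
The Itgam window holds 3 matches to GAGGAA and the Itgax window 1 match to TGANTCA, and neither motif is in the other 2 windows shown (a second Itgb6 window holds 1 match to GAGGAA). Of the 34 members, 22 had a promoter window in the table (25 windows). GAGGAA was in 13 of the 25 windows, against 28.28% of all 32851 windows of the same length, and TGANTCA was in 3, against 7.81%. These motifs cannot overlap each other. GGGCGG, the Sp1 core, was in 12 windows, against 35.66%, and TATAAA in 0, against 13.62%. GGGCGG can overlap GAGGAA by 1 base. A match describes letters in these windows and nothing about binding.

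The first question was what bleomycin changed among these genes in wild type lung. Of 34 members, 20 rose and 4 fell, against 27.7% of all genes called in this comparison (13.3% higher and 14.4% lower; limma, Benjamini-Hochberg adjusted p under 0.05 over all genes). The median log2 change was 0.48 over the members and -0.04 over all genes. The largest rise was that of the laminin chain Lama1, followed by Itgb6, Itgam, Itgax and Itgb2, and the largest fall that of Itga8. Integrin subunits (13 higher and 4 lower of 24) and laminin chains (7 higher and 0 lower of 10; 0 also at an unadjusted p under 0.05) both contributed. These counts are descriptions, since the members were chosen with earlier results known.

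**Figure D1:**
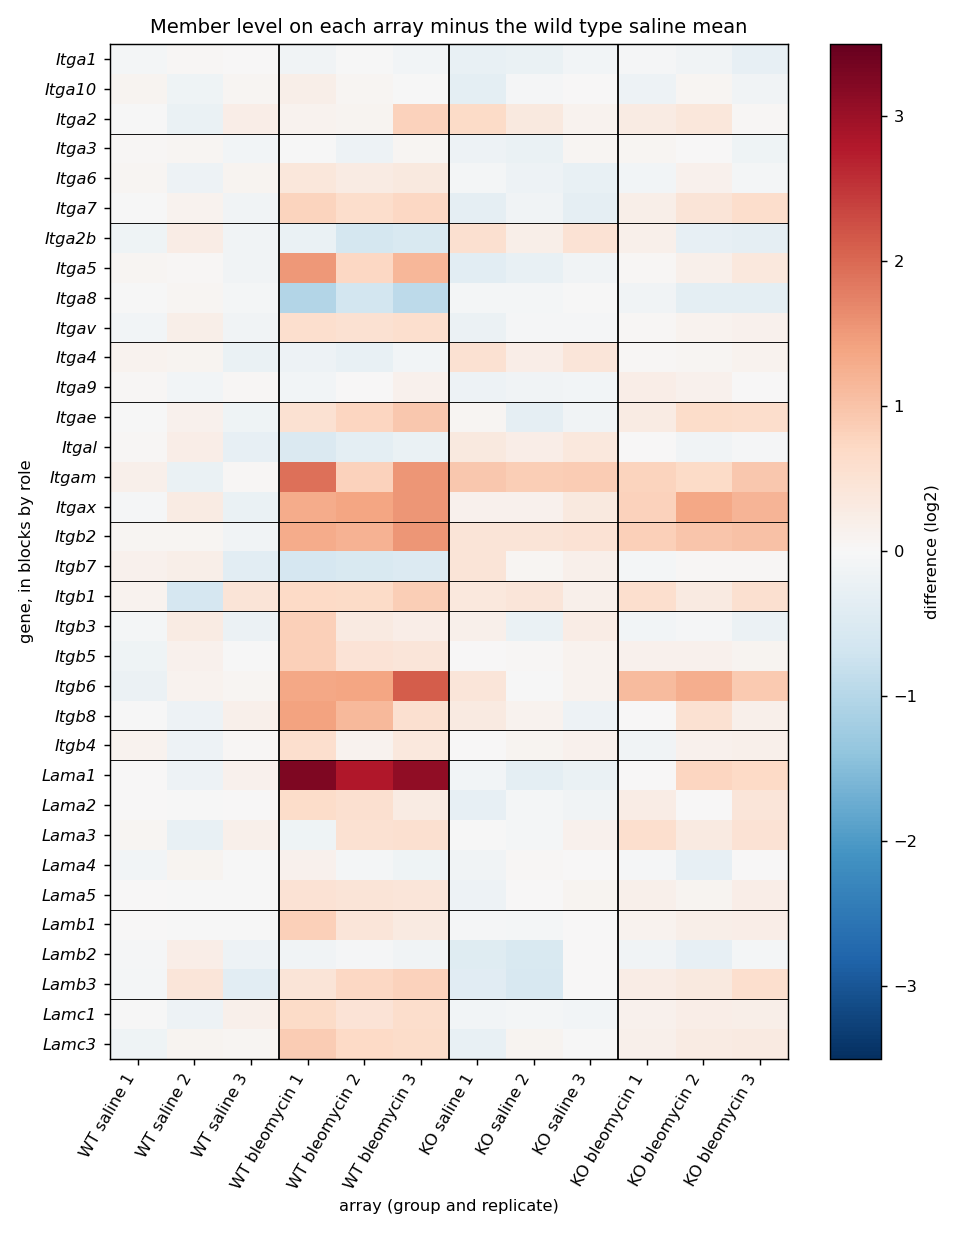
Level of each of the 34 members on each of the 12 arrays as the difference (log2) from the mean of the wild type saline arrays; columns are arrays, rows are genes in blocks by role, red is higher and blue is lower. Lama1 stands out on the 3 wild type bleomycin arrays, and Itga8 is lower on them.

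Laminin alpha chains carry most of the sites that cells bind. Lama1, the alpha chain of the laminin of early embryos and of some adult epithelial basement membranes, read 4.09, 3.91 and 4.23 (log2) on the wild type saline arrays and 7.33, 6.89 and 7.17 on the wild type bleomycin arrays. Every bleomycin array lay far above every saline array. The change was 3.06 ± 0.18 (SE, n = 3 per group; 8.32-fold, limma, adjusted p = 3.83e-07), the largest of the 34. In saline lungs the gene sat at percentile 29.6 of the probe sets of an array. That level could not be told from background here, so the true fold may be larger than this estimate. The 95% interval of the log2 change ran from 2.68 to 3.44. Lama5, the widespread alpha chain of adult lung basement membranes, read 8.63, 8.60 and 8.58 after saline and 9.12, 9.04 and 9.03 after bleomycin. Its groups did not overlap, and it rose by 0.46 ± 0.08 (adjusted p = 0.000912). Lama2, the alpha chain of muscle and fibroblast basement membranes, read 9.11, 9.10 and 9.11 after saline and 9.76, 9.68 and 9.38 after bleomycin. It rose by 0.50 ± 0.11 (adjusted p = 0.00535). Lama3, an epithelial chain, had a change of 0.31 ± 0.17 with overlapping arrays and did not pass (adjusted p = 0.202). Without wild type bleomycin replicate 1, which read 9.15 against 9.85 and 9.87 on the others, its change was 0.55 (adjusted p = 0.00837). The other Lama3 probe set had a change of the opposite sign that was not called. Lama4, the endothelial alpha chain, did not pass, with a change of -0.02 and a 95% interval from -0.24 to 0.20.

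Beta and gamma chains complete the trimer. Lamb1, the common beta chain, read 10.26, 10.25 and 10.24 after saline and 11.09, 10.68 and 10.56 after bleomycin. It rose by 0.53 ± 0.11 (adjusted p = 0.00293), and 2 of its 3 other probe sets were also called higher (0.68 and 0.74). Lamb3, the beta chain of the laminin that anchors epithelium, read 9.20, 9.67 and 8.90 after saline and 9.71, 9.97 and 10.06 after bleomycin. The groups were separated by a narrow gap, and the rise of 0.65 ± 0.19 (adjusted p = 0.0191) was lost without wild type saline replicate 1 (0.0591) or 3 (0.0784) or wild type bleomycin replicate 2 (0.0554) or 3 (0.0690). Lamb2, the beta chain found in mature vessel, muscle and nerve basement membranes, read 8.86, 9.16 and 8.73 after saline and 8.80, 8.88 and 8.79 after bleomycin and did not pass (-0.09 ± 0.14, adjusted p = 0.676). Lamc1, the gamma chain of most laminins, read 9.40, 9.23 and 9.60 after saline and 10.09, 9.88 and 10.03 after bleomycin. It rose (0.59 ± 0.09, adjusted p = 0.000433). Lamc3, a gamma chain of less common laminins, read 5.54, 5.79 and 5.77 after saline and 6.58, 6.39 and 6.34 after bleomycin. It rose 1.66-fold (0.73 ± 0.11, adjusted p = 0.000226), and the other probe set of each gamma gene was called higher too (0.70 for Lamc1 and 0.80 for Lamc3).

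Among alpha subunits that bind laminin, 2 of 3 rose. Itga7, the laminin receptor of skeletal, cardiac and smooth muscle, read 6.67, 6.81 and 6.55 after saline and 7.47, 7.29 and 7.39 after bleomycin. The groups did not overlap, and it rose 1.63-fold (0.70 ± 0.11, adjusted p = 0.000371). Over the same arrays all 10 cardiac muscle markers fell, with a log2 summed level of 12.86 to 13.4 after saline and 11.05 to 11.6 after bleomycin, and 0 of 8 smooth muscle markers passed (2 at an unadjusted p under 0.05; summed level 13.04 to 13.4 and 13.22 to 13.9). Of 8 skeletal muscle markers 1 fell (summed level 7.68 to 7.93 and 7.33 to 7.41). The part of these markers in the result was not tested. Itga6, the laminin receptor of epithelium and endothelium, read 10.82, 10.57 and 10.84 after saline and 11.15, 11.02 and 11.09 after bleomycin. Its rise of 0.34 ± 0.10 (adjusted p = 0.0201) was lost without wild type saline replicate 2 (0.0760) or wild type bleomycin replicate 1 (0.0646) or 3 (0.0508). Itga3, the other epithelial laminin receptor, read 10.47, 10.49 and 10.33 after saline and 10.41, 10.26 and 10.50 after bleomycin and did not pass (-0.04 ± 0.10, adjusted p = 0.807). Itgb4, which pairs with Itga6 alone in hemidesmosomes, read 6.52, 6.22 and 6.43 after saline and 6.97, 6.52 and 6.75 after bleomycin, so that the highest saline and lowest bleomycin arrays met. Its rise of 0.35 ± 0.12 (adjusted p = 0.0451) was lost without any of 9 arrays: wild type saline replicate 2 or 3, wild type bleomycin replicate 1 or 3, knockout saline replicate 1, 2 or 3, or knockout bleomycin replicate 2 or 3 (adjusted p from 0.0501 to 0.170). With array weights it was 0.19 (adjusted p = 0.125).

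All 4 alpha subunits that recognise the RGD sequence of fibronectin and related proteins were called, 2 in each direction. Itga5, which with Itgb1 forms the classic fibronectin receptor, read 7.31, 7.28 and 7.11 after saline and 8.74, 7.95 and 8.39 after bleomycin. It rose 2.19-fold (1.13 ± 0.16, adjusted p = 0.000204), and as the mean of its 4 probe sets by 0.64 (adjusted p = 0.00295). Itgav, the alpha subunit of the vitronectin and TGF-beta activating integrins, read 10.22, 10.52 and 10.19 after saline and 10.89, 10.85 and 10.89 after bleomycin. It rose by 0.56 ± 0.09 (adjusted p = 0.000515), and by 0.35 as the mean of its 5 probe sets (adjusted p = 0.00656). Of its 4 other probe sets only 2 had a change of the same sign, with 1 called higher and 0 called lower. Itga8, the receptor for nephronectin on alveolar fibroblasts and smooth muscle, read 11.72, 11.80 and 11.68 after saline and 10.70, 11.09 and 10.82 after bleomycin. Every bleomycin array lay below every saline array, and the gene fell by 0.86 ± 0.10 (adjusted p = 3.96e-05). The mean of its 2 probe sets gave -0.54 and did not pass (adjusted p = 0.0995). Of 9 fibroblast and myofibroblast markers 6 rose and 2 fell in the same comparison (summed level 14.12 to 14.23 after saline and 14.84 to 15.23 after bleomycin), and their part in these changes and in that of Lama2 was not tested. Itga2b, the platelet fibrinogen receptor subunit, read 7.10, 7.5 and 7.11 after saline and 7.01, 6.61 and 6.71 after bleomycin. It fell by 0.46 ± 0.16 (adjusted p = 0.0461), a call lost without any of 8 arrays: wild type saline replicate 1, 2 or 3, wild type bleomycin replicate 2 or 3, knockout saline replicate 1 or 3, or knockout bleomycin replicate 2 (adjusted p from 0.0515 to 0.170). Of 7 platelet and megakaryocyte markers 4 fell too (summed level 9.79 to 10.07 after saline and 9.45 to 10.27 after bleomycin), and their part in the result was not tested.

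The beta partners of Itgav rose in 3 of 4 cases. Itgb6, the epithelial subunit whose integrin with Itgav binds latent TGF-beta, read 7.63, 7.94 and 7.89 after saline and 9.19, 9.21 and 9.93 after bleomycin. It rose 3.08-fold (1.62 ± 0.18, adjusted p = 3.44e-05), the largest change among the integrins, and its other probe set gave 2.31 ± 0.35 (adjusted p = 0.000621 over all probe sets). Itgb8, the other subunit known for binding latent TGF-beta, read 4.38, 4.22 and 4.57 after saline and 5.80, 5.54 and 4.94 after bleomycin. It rose 2.05-fold (1.04 ± 0.20, adjusted p = 0.00177). In wild type saline lungs Itgb8 sat at percentile 34.7 of the probe sets. If that level was background, the true fold may be larger than this estimate. Itgb5, a vitronectin receptor subunit, read 9.70, 9.99 and 9.84 after saline and 10.68, 10.32 and 10.26 after bleomycin. It rose 1.49-fold (0.58 ± 0.11, adjusted p = 0.00146), and its 3 other probe sets gave 0.52 to 0.61, all called. Itgb3, the subunit shared by platelets, osteoclasts and activated endothelium, read 7.40, 7.75 and 7.26 after saline and 8.31, 7.78 and 7.71 after bleomycin and did not pass (0.46 ± 0.17, adjusted p = 0.0626). It passed without wild type saline replicate 2 (0.0273), wild type bleomycin replicate 3 (0.0424) or knockout saline replicate 2 (0.0491). The other Itgb3 probe set had a change of the opposite sign that was not called. Among 10 markers of airway basal and injured keratin-rich epithelium, 5 rose with Itgb6 and Lamb3 (summed level 12.8 to 13.07 after saline and 13.26 to 13.54 after bleomycin). Of other epithelial markers, 5 of 7 of alveolar type 2 cells fell (15.86 to 15.92 and 15.23 to 15.71). So did 7 of 8 of ciliated and club cells (15.55 to 15.72 and 14.74 to 15.2). In either list 0 were higher (limma, 0 also at an unadjusted p under 0.05). Of 8 alveolar type 1 markers 2 fell and 1 rose (15.38 to 15.42 and 14.98 to 15.29). The part of these lists in the changes of epithelial subunits and chains was not tested.

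Itgb1, the partner of most alpha subunits, read 10.62, 9.93 and 10.97 after saline and 11.20, 11.18 and 11.37 after bleomycin. The groups did not overlap, and it rose by 0.75 ± 0.19 (adjusted p = 0.0115). Wild type saline replicate 2, the array with the high 3 prime minus 5 prime signal, was its lowest, and the part of RNA quality in the result was not tested. Without that array the change was 0.46 (adjusted p = 0.0188). The 6 Itgb1 probe sets disagreed. The next brightest gave 0.86 ± 0.19 (adjusted p = 0.00726 over all probe sets) and the one after it -1.13 ± 0.22 (adjusted p = 0.00304), and the mean of all 6 did not pass (0.18, adjusted p = 0.255).

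The collagen-binding subunits and the alpha 4 and alpha 9 subunits had 0 of 5 called (limma; 0 of 5 at an unadjusted p under 0.05). Among the collagen receptors, Itga1 read 9.25, 9.35 and 9.30 after saline and 9.18, 9.30 and 9.21 after bleomycin, a change of -0.07 (adjusted p = 0.552). Itga10 read 5.04, 4.80 and 5.01 and 5.14, 5.00 and 4.93, a change of 0.08 (adjusted p = 0.649). Itga2 read 5.37, 5.14 and 5.61 and 5.49, 5.48 and 6.19, a change of 0.35 (adjusted p = 0.212). Bleomycin replicate 3 was the high array of Itga2, whose 95% interval ran from -0.08 to 0.77. Itga4, the receptor for VCAM1 on white blood cells, read 8.37, 8.33 and 8.0 after saline and 8.05, 7.99 and 8.14 after bleomycin. Its arrays overlapped, and its change of -0.17 did not pass (adjusted p = 0.247) but did without wild type saline replicate 3 (-0.29, adjusted p = 0.0412). Itga9, a receptor for tenascin C, read 8.20, 8.06 and 8.21 and 8.07, 8.18 and 8.31, a change of 0.03 on its brightest probe set (adjusted p = 0.836), while another probe set was called higher (0.50 ± 0.12, adjusted p = 0.0104 over all probe sets).

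All 6 subunits grouped here as leukocyte alpha and beta subunits, a group without Itga4, were called in wild type lungs, 4 higher and 2 lower, and partners of 1 receptor did not always go the same way. Itgb2, the common beta subunit of leukocytes, read 9.74, 9.74 and 9.57 after saline and 10.97, 10.91 and 11.24 after bleomycin. It rose 2.56-fold (1.35 ± 0.09, adjusted p = 1.34e-06). Itgax (CD11c), the partner of Itgb2 on alveolar macrophages and dendritic cells, read 8.78, 9.11 and 8.59 after saline and 10.13, 10.21 and 10.36 after bleomycin. Every bleomycin array lay above every saline array, and it rose 2.65-fold (1.41 ± 0.15, adjusted p = 2.14e-05). Itgam (CD11b), the partner of Itgb2 on monocytes, neutrophils and recruited macrophages, read 4.74, 4.32 and 4.61 after saline and 6.49, 5.35 and 6.09 after bleomycin. It rose 2.68-fold (1.42 ± 0.21, adjusted p = 0.000313). In wild type saline lungs Itgam sat at percentile 37.0 of the probe sets. If that level was background, the true fold may be larger than this estimate. Of 11 macrophage and monocyte markers 8 rose beside them (summed level 14.36 to 14.44 after saline and 14.83 to 14.95 after bleomycin), while of 7 neutrophil markers 4 fell and 1 rose (11.5 to 11.9 and 10.44 to 11.02). The part of these markers was not tested.

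Itgal (CD11a), which pairs with Itgb2 on lymphocytes, read 9.01, 9.20 and 8.68 after saline and 8.44, 8.61 and 8.73 after bleomycin. It fell by 0.37 ± 0.12 (adjusted p = 0.0349) although its arrays overlapped. The call was lost without wild type saline replicate 1 (0.0968) or 2 (0.132) or wild type bleomycin replicate 1 (0.123) or 2 (0.0697), and as the mean of both probe sets (-0.25, adjusted p = 0.123). Itgb7, the beta subunit of gut-homing and intraepithelial lymphocytes, read 7.60, 7.66 and 7.09 after saline and 6.86, 6.91 and 6.96 after bleomycin. It fell by 0.54 ± 0.14 (adjusted p = 0.00992). Itgae (CD103), which pairs with Itgb7 and binds E-cadherin, read 6.31, 6.47 and 6.16 after saline and 6.84, 7.06 and 7.25 after bleomycin. It rose 1.66-fold (0.73 ± 0.14, adjusted p = 0.00134), and its other probe set gave 0.55 (adjusted p = 0.0230 over all probe sets). Of 10 T and NK cell markers 9 fell (summed level 10.97 to 11.46 after saline and 9.63 to 10.09 after bleomycin), and of 7 dendritic cell markers 1 rose and 2 fell (12.24 to 12.37 and 12.65 to 12.78). The part of these markers was not tested.

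The second question was how FIZZ2 knockout lungs responded. Of 34 members, 6 rose and 0 fell (limma; 15 positive and 4 negative at an unadjusted p under 0.05), against 3.26% of all genes called (1.98% higher and 1.29% lower). The median log2 change was 0.17, and 0.01 over all genes. The 6 were Itgb6, Itgax, Lama1, Itga7, Itgae and Itgb2, all of which also rose in wild type lungs. Leaving out 1 array gave between 2 and 7 called members. There were 2 without knockout saline replicate 2, 2 without knockout bleomycin replicate 2 and 3 without knockout bleomycin replicate 3, and array weights gave 11.

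**Figure D2:**
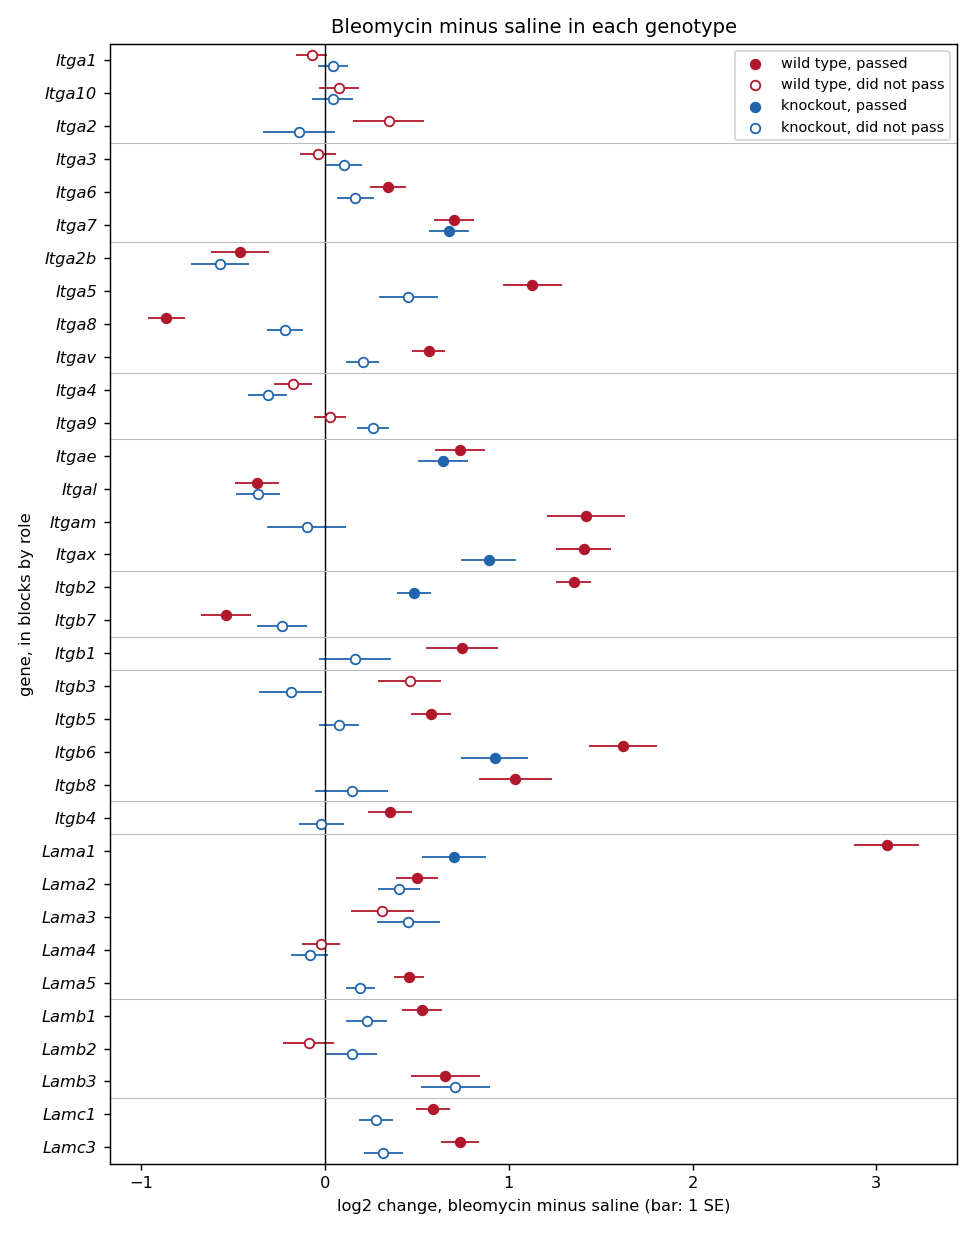
Log2 change from saline to bleomycin for each of the 34 members in wild type (red) and knockout (blue) lungs, from the limma fit, with bars of 1 SE; filled points passed at an adjusted p under 0.05 and open points did not. In wild type lungs 24 points are filled and in knockout lungs 6, and Itga7 and Itgae have nearly the same change in both.

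Itga7 read 6.36, 6.55 and 6.37 in knockout saline lungs and 6.89, 7.12 and 7.29 in knockout bleomycin lungs. It rose 1.60-fold (0.68 ± 0.11, adjusted p = 0.00593), and the difference between the genotypes in this response was -0.03, with a 95% interval from -0.36 to 0.30. In knockout lungs 1 of 10 cardiac markers fell (9 at an unadjusted p under 0.05, with all 10 changes negative; summed level 12.92 to 13.61 after saline and 11.15 to 13.2 after bleomycin) and 2 of 8 smooth muscle markers fell (12.94 to 13.52 and 12.48 to 12.75); their part was not tested. Itgax read 8.97, 8.98 and 9.18 after saline and 9.62, 10.18 and 10.01 after bleomycin. It rose 1.85-fold (0.89 ± 0.15, adjusted p = 0.00699), and the difference from the wild type response, -0.52 with an interval from -0.97 to -0.06, did not pass (adjusted p = 0.175). These 2 calls held under every alternative tried, but both genes have 1 probe set, so the probe set rules could not change their values. Beside Itgax and Itgb2, 6 of 11 macrophage and monocyte markers rose in knockout lungs (summed level 14.44 to 14.55 after saline and 14.67 to 14.79 after bleomycin) and 3 of 7 neutrophil markers fell (12.55 to 13.3 and 11.28 to 11.8), and their part was not tested.

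The other 4 calls in knockout lungs depended on single arrays. Itgb6 read 8.24, 7.82 and 7.94 after saline and 8.93, 9.09 and 8.74 after bleomycin, with no overlap. It rose 1.90-fold (0.92 ± 0.18, adjusted p = 0.0172), a call lost without knockout saline replicate 2 (0.0882) or 3 (0.0602) or knockout bleomycin replicate 2 (0.0766) and as the mean of both probe sets (0.0602). Itgae read 6.38, 5.99 and 6.20 after saline and 6.60, 6.95 and 6.94 after bleomycin. It rose 1.56-fold (0.64 ± 0.14, adjusted p = 0.0242), lost without knockout saline replicate 2 (0.116) or 3 (0.0676) or knockout bleomycin replicate 2 (0.0906) or 3 (0.0915). Itgb2 read 10.13, 10.13 and 10.19 after saline and 10.52, 10.66 and 10.71 after bleomycin. It rose 1.40-fold (0.48 ± 0.09, adjusted p = 0.0163), lost without knockout saline replicate 1 (0.0644) or 2 (0.0730) or knockout bleomycin replicate 2 (0.0614) or 3 (0.0672). Lama1 read 3.98, 3.74 and 3.84 after saline and 4.08, 4.83 and 4.76 after bleomycin, so that replicate 1 stayed near the saline level. Its rise of 0.70 ± 0.18 (adjusted p = 0.0484) was lost without any of 10 arrays, all but wild type bleomycin replicate 1 and knockout bleomycin replicate 1 (adjusted p from 0.0505 to 0.175).

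Among the members that did not pass in knockout lungs, the arrays of Itga5 (6.85, 6.98 and 7.11 after saline, 7.28, 7.41 and 7.61 after bleomycin) did not overlap. Its change was 0.45 ± 0.16 (adjusted p = 0.150). Lamb3 had 0.71 ± 0.19 (adjusted p = 0.0615), against 0.65 in wild type lungs, and passed without wild type saline replicate 2 (0.0287) or 3 (0.0391) or knockout saline replicate 3 (0.0447). Lama3 had 0.45 ± 0.17 (adjusted p = 0.180) and passed without wild type bleomycin replicate 1 (0.0463). Itga2b had -0.57 ± 0.16 (adjusted p = 0.0738) and passed without knockout bleomycin replicate 1 (-0.73, adjusted p = 0.0216). Itgam had -0.10 ± 0.21 (adjusted p = 0.859), with knockout saline arrays at 5.5, 5.41 and 5.44 and knockout bleomycin arrays at 5.33, 5.22 and 5.5. The alpha V partners Itgb5 and Itgb8 had 0.07 and 0.15 (adjusted p = 0.780 and 0.767), with 95% intervals from -0.16 to 0.31 and from -0.29 to 0.58. Of the remaining members that did not pass, Itga8 had -0.22, Itgav 0.20 and the laminin chains Lama2, Lama5, Lamb1, Lamc1 and Lamc3 between 0.19 and 0.40.

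The difference between the 2 responses was tested directly. It passed for 4 of 34 members, 3 with a lower and 1 with a higher log2 change in knockout lungs, against 5.02% of all genes (3.0% lower and 2.03% higher). Array weights gave 9. The median difference was -0.22 over the members and 0.04 over all genes. For Lama1 the difference was -2.35 ± 0.25 (adjusted p = 0.000953), the largest difference among the members. For Itgam it was -1.52 ± 0.30 (adjusted p = 0.0147) and for Itgb2 -0.87 ± 0.13 (adjusted p = 0.00537). Itga8 went the other way, falling in wild type lungs and reading 11.67, 11.65 and 11.72 after saline and 11.61, 11.39 and 11.39 after bleomycin in knockout lungs. The difference was 0.64 ± 0.14 (adjusted p = 0.0232). The call of Itga8 was lost without knockout saline replicate 1 (0.0604) or 2 (0.0586) or knockout bleomycin replicate 1 (0.0623), and the mean of its probe sets gave 0.28 (adjusted p = 0.647). Among members that did not pass, Itgb8 had -0.89 with a 95% interval from -1.50 to -0.28 (adjusted p = 0.0869) and passed without wild type bleomycin replicate 3 (-1.13, adjusted p = 0.0208). Itga5 had -0.68 (-1.17 to -0.19, adjusted p = 0.104) and passed without wild type bleomycin replicate 2 (-0.88, adjusted p = 0.0156). Itgav had -0.36 (-0.64 to -0.08, adjusted p = 0.125) and passed without wild type saline replicate 2 (-0.47, adjusted p = 0.0275). Itgb6 had -0.70 (-1.26 to -0.14, adjusted p = 0.137).

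**Figure D3:**
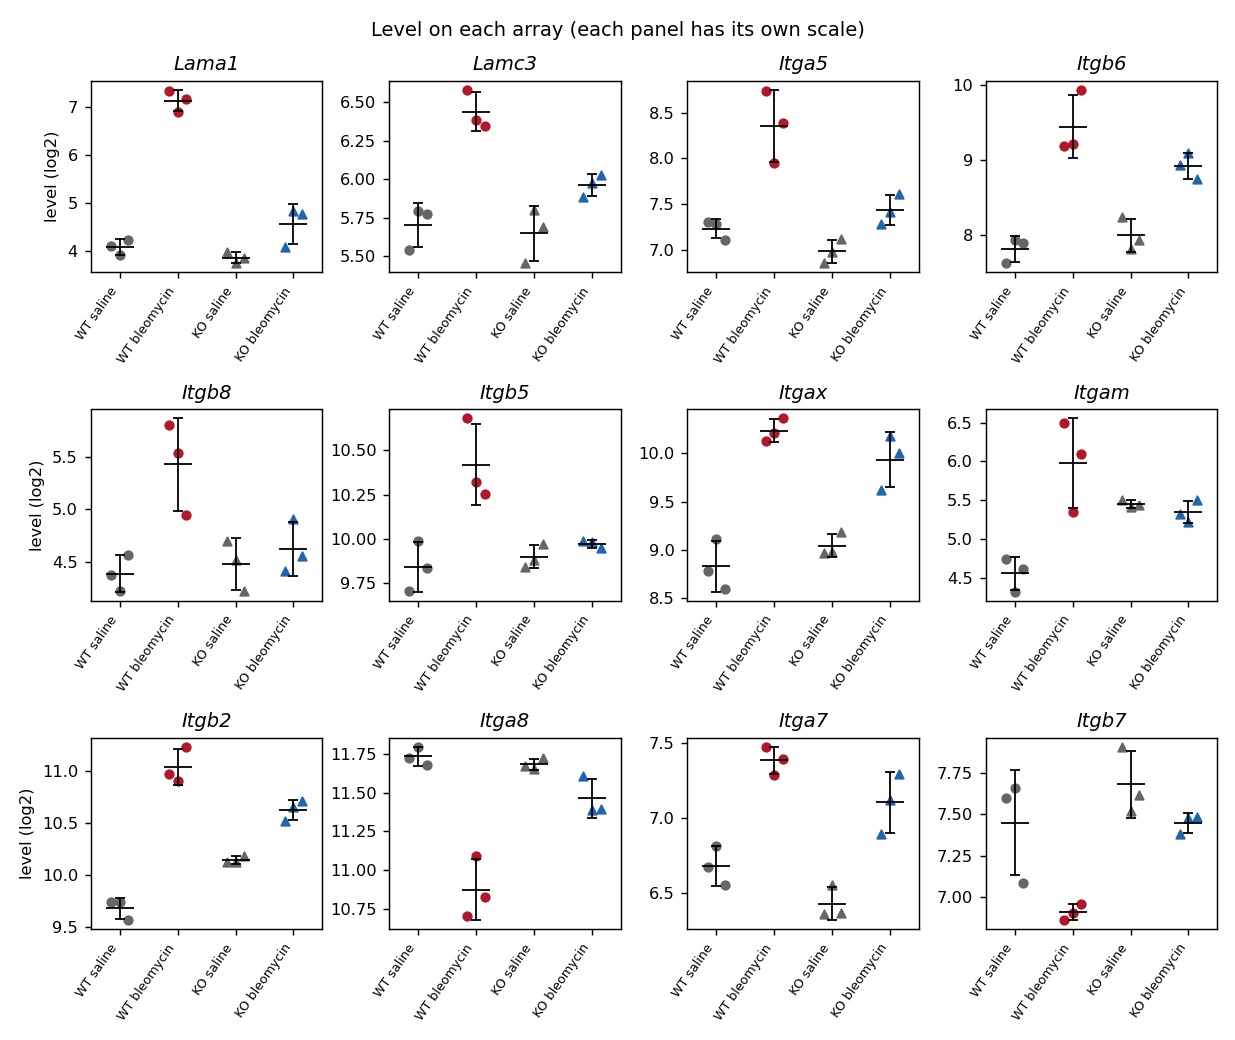
Level (log2) of 12 members on each array, with 1 panel per gene and its own scale; circles are wild type and triangles knockout arrays, and black marks are the group mean ± SD (n = 3). Lama1 in wild type bleomycin lungs lies between 6.89 and 7.33, above all knockout bleomycin arrays (4.08 to 4.83). The arrays of Itgax and Itga7 only just overlap between the genotypes after bleomycin.

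The third question was how the genotypes compared after each treatment; these comparisons use the same arrays as the responses above. After saline, 0 of 34 members passed (limma; 8 at an unadjusted p under 0.05, 5 higher and 3 lower in knockout), against 0.489% of all genes. The nearest was Itgb2, at 10.13, 10.13 and 10.19 in knockout and 9.74, 9.74 and 9.57 in wild type saline lungs, with no overlap and a difference of 0.46 ± 0.09 (adjusted p = 0.0583). It passed without wild type bleomycin replicate 3 (0.0313). Itgam was 0.89 ± 0.21 higher in knockout saline lungs without passing (adjusted p = 0.117), with no overlap, and passed without wild type bleomycin replicate 1 (0.0303) or 2 (0.0145). Beside these, 4 of 7 neutrophil markers were higher in knockout saline lungs (summed level 12.55 to 13.3 against 11.5 to 11.9), whereas 0 of 11 macrophage and monocyte markers passed (2 at an unadjusted p under 0.05). The part of these markers was not tested.

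After bleomycin, 11 members were lower and 2 higher in knockout than in wild type lungs, against 15.4% of all genes (7.89% lower and 7.52% higher). The median difference was -0.27 over the members and 0.03 over all genes. The count was 7 without wild type bleomycin replicate 1, 8 without knockout bleomycin replicate 1 and 8 with the mean of all probe sets. Lama1 was 5.95-fold lower in knockout lungs (-2.57 ± 0.18, adjusted p = 6e-06). Its knockout level sat at percentile 36.7 of the probe sets, so the true fold may be larger than this estimate. Itga5 was 1.90-fold lower (-0.93 ± 0.16, adjusted p = 0.00207) and Itgav, at 10.12, 10.26 and 10.26 in knockout saline and 10.35, 10.43 and 10.46 in knockout bleomycin lungs, 1.38-fold lower (-0.46 ± 0.09, adjusted p = 0.00473). Itgav had -0.23 as the mean of its probe sets (adjusted p = 0.0751), and Itga5 -0.58 (adjusted p = 0.0106).

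Of the beta partners of Itgav, Itgb8, Itgb3 and Itgb5 were lower after bleomycin and Itgb6 did not pass. Itgb8 read 4.41, 4.91 and 4.56 in knockout against 5.80, 5.54 and 4.94 in wild type bleomycin lungs, a difference of -0.80 ± 0.20 (adjusted p = 0.0164). It did not pass without wild type bleomycin replicate 1 (0.0699) or 2 (0.0509) or knockout bleomycin replicate 1 (0.0744). Itgb3 read 7.38, 7.43 and 7.26 against 8.31, 7.78 and 7.71, a difference of -0.58 ± 0.17 (adjusted p = 0.0382). It was lost without wild type saline replicate 1 (0.0509), wild type bleomycin replicate 1 (-0.39, adjusted p = 0.146) or knockout bleomycin replicate 1 (0.0919), 2 (0.0676) or 3 (0.105). The other Itgb3 probe set, which is dimmer, had 0.07 (adjusted p = 0.675), and the mean of both -0.25 (adjusted p = 0.137). Itgb5 read 9.99, 9.98 and 9.95 in knockout bleomycin lungs, a difference of -0.45 ± 0.11 (adjusted p = 0.0142). Itgb6 had -0.52 ± 0.18 (adjusted p = 0.0727). In knockout saline lungs Itgb8 read 4.70, 4.52 and 4.22, Itgb3 7.65, 7.25 and 7.73 and Itgb5 9.84, 9.88 and 9.97, overlapping the wild type saline arrays.

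The laminin chains Lamc3, Lamc1 and Lama5 were lower in knockout bleomycin lungs, as was Itga6. Lamc3 read 5.88, 5.98 and 6.03 there and differed by -0.47 ± 0.11 (adjusted p = 0.00913; -0.38 and 0.0646 as the mean of its probe sets). Lamc1 read 9.57, 9.64 and 9.62 and differed by -0.39 ± 0.09 (adjusted p = 0.0125), not passing without wild type bleomycin replicate 1 (0.05004) and as the mean of its probe sets (0.140). Lama5 read 8.77, 8.71 and 8.84 and differed by -0.29 ± 0.08 (adjusted p = 0.0263), lost without wild type bleomycin replicate 1 (0.0855) or knockout bleomycin replicate 1 (0.0744) or 2 (0.0836). Itga6 read 10.64, 10.91 and 10.68 and differed by -0.34 ± 0.10 (adjusted p = 0.0329), lost without wild type bleomycin replicate 1 (0.103) or 3 (0.0732) or knockout bleomycin replicate 1 (0.128) or 3 (0.0952). The Itga6 call was also lost as the mean of its probe sets (-0.31, adjusted p = 0.1015) and stayed in 11 of 20 alternatives. Lamb1 had -0.34 ± 0.11 and did not pass (adjusted p = 0.0535); it passed without wild type bleomycin replicate 3 (0.0165), as did Lama2 (-0.37, adjusted p = 0.0452). In knockout saline lungs Lamc3 read 5.45, 5.80 and 5.69, Lamc1 9.32, 9.36 and 9.32, Lama5 8.43, 8.62 and 8.70 and Itga6 10.69, 10.57 and 10.48. Of the other adhesion receptors, Itga7 passed without knockout bleomycin replicate 3 (-0.38, adjusted p = 0.0428) and Itgb4 without wild type bleomycin replicate 2 (-0.41, adjusted p = 0.0428).

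Among leukocyte subunits Itgb2 was lower in knockout bleomycin lungs (-0.41 ± 0.09, adjusted p = 0.0114; 0.0558 without knockout bleomycin replicate 1). Itgam had -0.63 ± 0.21 (adjusted p = 0.0652) and passed without wild type bleomycin replicate 2 (-0.94, adjusted p = 0.00135). Beside them 6 of 11 macrophage and monocyte markers were lower and 0 higher (summed level 14.67 to 14.79 in knockout and 14.83 to 14.95 in wild type), while of 7 neutrophil markers 4 were higher and 1 lower (11.28 to 11.8 against 10.44 to 11.02). Itgb7 was higher by 0.54 ± 0.14 (adjusted p = 0.0182), with knockout arrays at 7.91, 7.52 and 7.61 after saline and 7.38, 7.48 and 7.48 after bleomycin. It did not pass without wild type bleomycin replicate 1 (0.0581) or knockout bleomycin replicate 2 (0.0543) or 3 (0.0510). Itgal, which did not pass (0.31, adjusted p = 0.0970), did without wild type saline replicate 3 (0.0376). Of 10 T and NK cell markers 7 were higher and 0 lower (10.67 to 11.05 against 9.63 to 10.09), and of 8 B and plasma cell markers 6 were higher and 0 lower (13.79 to 14.31 against 12.91 to 13.19). Itga8 was higher too, at 11.61, 11.39 and 11.39 in knockout lungs, by 0.59 ± 0.10 (adjusted p = 0.00171), and its probe sets' mean gave 0.63 without passing (adjusted p = 0.0818). Of 8 smooth muscle markers 5 were lower and 0 higher in the same comparison (12.48 to 12.75 against 13.22 to 13.9), and of 9 fibroblast and myofibroblast markers 4 were lower and 1 higher (14.34 to 14.49 against 14.84 to 15.23). Of 7 alveolar type 2 markers 6 were higher and 0 lower (15.91 to 16 against 15.23 to 15.71). The part of these markers was not tested.

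**Figure D4:**
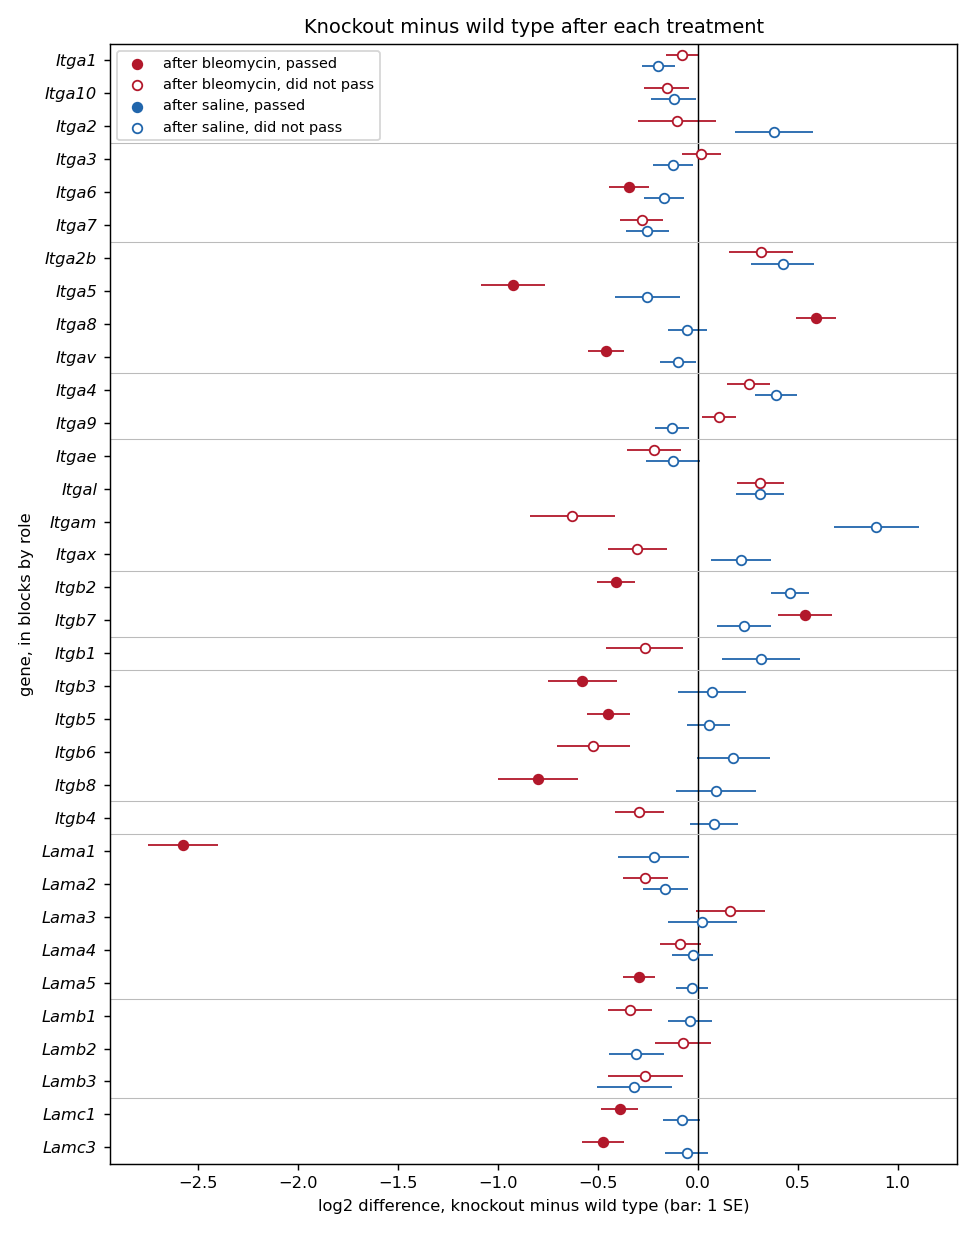
Log2 difference of knockout minus wild type for each of the 34 members after bleomycin (red) and after saline (blue), with bars of 1 SE; filled points passed at an adjusted p under 0.05 and open points did not. After bleomycin 13 points are filled, 11 of them below 0, and after saline 0 are filled.

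The rest of the adhesion pathway was read from 5 lists, all by limma with adjustment over all genes, of which 27.7% were called in wild type and 3.26% in knockout lungs. Basement membrane components other than laminins had 15 rises and 5 falls among 27 measured in wild type lungs, and 8 rises and 0 falls (3 at an unadjusted p under 0.05) in knockout lungs. The collagen IV chains Col4a1 and Col4a2, which form the basement membrane network, rose by 1.02 ± 0.09 and 1.08 ± 0.10 in wild type (adjusted p = 5.79e-06 and 6.57e-06) and by 0.62 and 0.63 in knockout lungs (adjusted p = 0.00367 and 0.00526). Nid1, which ties laminin to collagen IV, rose by 0.67 ± 0.08 (adjusted p = 5.25e-05) and 0.38 (adjusted p = 0.0241). Npnt, which encodes nephronectin, the ligand of the Itga8 receptor, fell in wild type lungs as Itga8 did (-0.55 ± 0.15, adjusted p = 0.0124) and was 0.61 higher in knockout than wild type lungs after bleomycin (adjusted p = 0.0129). Npnt was chosen after its values were seen.

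Among 22 measured ligands of matrix and plasma, 13 rose and 2 fell in wild type lungs and 3 rose and 0 fell (1 at an unadjusted p under 0.05) in knockout lungs. The difference between responses passed for 7 of the 22, against 5.02% of all genes. Fn1, fibronectin, the ligand of the Itga5 receptor, rose by 2.13 ± 0.13 in wild type and by 0.78 in knockout lungs (adjusted p = 4.61e-07 and 0.00677). Tnc, tenascin C, a ligand of the Itga9 receptor, rose by 4.04 ± 0.26 and 1.99 (adjusted p = 8.66e-07 and 0.00209). Vtn, vitronectin, the plasma ligand of alpha V integrins, fell by 0.91 ± 0.09 in wild type (adjusted p = 1.68e-05) and had -0.22 in knockout lungs (adjusted p = 0.222).

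Partners on and inside the cell followed. Of 13 counter-receptors on other cells 2 were called in wild type lungs, or 15.4%, below the share over all genes. Jam2 rose by 0.74 ± 0.10 (adjusted p = 0.00016) and Icam2, an endothelial ligand of the Itgal receptor, fell by 0.80 ± 0.12 (adjusted p = 0.000247). In knockout lungs 0 of the 13 passed (1 at an unadjusted p under 0.05). Vcam1, the ligand of the Itga4 receptors, had 0.25 and 0.28 (adjusted p = 0.0693 and 0.133). Of 35 measured genes of the adhesion machinery inside the cell, 9 rose and 6 fell in wild type lungs and 0 rose (4 at an unadjusted p under 0.05) and 2 fell in knockout lungs. Skap2, an adaptor of macrophage adhesion, rose by 0.65 ± 0.08 (adjusted p = 3.96e-05), Actn1, an actin crosslinker of focal adhesions, by 0.76 ± 0.09 (adjusted p = 6.41e-05), and Lims2, a partner of integrin-linked kinase, fell by 1.01 ± 0.12 (adjusted p = 6.04e-05). Of 15 tetraspanins and other laminin receptors, 4 rose and 1 fell in wild type lungs, a share of 33.3% that lies near that of all genes, with the syndecans Sdc1 and Sdc3 at 0.42 ± 0.09 and 0.41 ± 0.10 (adjusted p = 0.00294 and 0.0102) and Cd47 at -0.37 (adjusted p = 0.0200). In knockout lungs Sdc1 alone of the 15 passed (0.35, adjusted p = 0.0477).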

How the data were processed

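Whole-lung RNA of 12 samples was read on 12 Affymetrix arrays. The values the authors deposited are log2 levels of 45101 probe sets; per the submitters' processing notes the authors used affy, RMA and limma, and versions, settings and genome build are not given in the sources used here. RMA makes the arrays' overall distributions alike and gives no detection calls, so dim signal was judged by level alone. Of the probe sets, 34958 had 1 gene in the annotation, 932 several and 9211 none; those with 1 gene were used, and 34754 matched a mouse gene table.

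A gene with several probe sets was read on its brightest by mean level, which gave 18194 genes; 20 of the 34 members have more than 1 probe set, and the members have 73 in all. Group means were fitted over the 12 arrays with limma 3.58.1 (R 4.3.3; statmod 1.5.0 for the alternatives) and eBayes (8 residual and 4.86 prior degrees of freedom), without a block, and p-values were adjusted by Benjamini-Hochberg over all genes, with 0.05 as the threshold. The SE and the 95% intervals come from that fit. Probe sets were also fitted all together. Tables and figures used Python 3.11.15, pandas 2.3.3 and matplotlib 3.10.9.

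The members and lists were chosen with earlier results of these data known. Every member was accounted for in its role group. Array values are given for the members called in the knockout response, the difference or a genotype comparison, and for up to 3 per role group with the smallest p in the wild type response. From each pathway list up to 3 genes with the smallest wild type p were named, and other genes are marked where chosen later. Summed marker levels are log2 of the summed linear values. Replicate numbers were not treated as pairs. Deviations from group means of arrays with the same number correlated at -0.297 to 0.203 across genes, and with different numbers at -0.226 to 0.358. This check gave no sign of pairing by number but cannot show that there was none. Alternatives were other probe set rules, a level filter, renormalisation, other eBayes options, array weights, the block, the groups of a comparison alone, and leaving out each array. Promoter windows came from RefSeq (GRCm38.p6).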

Additional observations from a re-analysis of the deposited data

Results flagged for a closer look

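The bleomycin response differed between genotypes for 4 members by a test of the difference itself (limma, knockout minus wild type response). Lama1 rose in both genotypes, with a difference of -2.35, and its knockout rise (adjusted p = 0.0484) stayed called in 4 of 19 alternatives. Itgam rose in wild type lungs and had -0.10 in knockout lungs, a difference of -1.52. Knockout minus wild type, Itgam had 0.89 after saline and -0.63 after bleomycin, and neither passed (adjusted p = 0.117 and 0.0652). The difference in its response thus draws on the saline arrays as well as the bleomycin arrays. Itgb2 rose in both genotypes, with a difference of -0.87, and its knockout rise stayed called in 16 of 20 alternatives. Knockout minus wild type, Itgb2 had 0.46 after saline (adjusted p = 0.0583) and -0.41 after bleomycin (adjusted p = 0.0114), so both treatments enter its difference too. Itga8 fell in wild type lungs and had -0.22 in knockout lungs, a difference of 0.64 that 3 single arrays could end and that its second probe set did not show.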

How the results depend on the processing

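Of the 47 called values of members, 25 stayed called, and 0 changed sign, under every alternative other than the next brightest probe set. In the wild type response 17 of 24 stayed and in the knockout response 2 of 6. In the difference 3 of 4 stayed and between genotypes after bleomycin 3 of 13. The mean of all probe sets cannot change the value of a gene with 1 probe set. The calls that stayed in the knockout response (Itga7 and Itgax) and in the difference (Lama1, Itgam and Itgb2) are of such genes. Leaving out 1 array gave 21 to 24 called members in the wild type response, 2 to 7 in the knockout response, 3 to 5 for the difference, 0 to 1 between genotypes after saline and 7 to 14 after bleomycin. Array weights gave 11 called members in the knockout response, 9 for the difference and 4 after saline. After saline, Itgb2 alone was called with a mean of at least 5, array medians subtracted, quantile normalization repeated, or trend and robust eBayes. With only the groups of the comparison, Itgam alone was called. After bleomycin, 8 were called between genotypes with the mean of all probe sets. On the next brightest probe set, an alternative chosen after seeing the data, the difference of Itga8 was -0.079 and the genotype difference of Itgb3 after bleomycin 0.0734. The cause of these shifts was not tested. With the replicate number as a block, 42 of 47 calls were kept. The called members were then 22 in the wild type response, 5 in the knockout response, 4 for the difference, 0 after saline and 12 after bleomycin. Of the 12 arrays, 2 correlated best with an array of their own number. That gave no sign of pairing by number but cannot show that there was none. With 3 arrays per group, intervals are wide, and Lama1, Itgam and Itgb8 lie near the dim end of the arrays in wild type saline lungs.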
